A study of Mus musculus with 6 samples.

Results

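The histone lysine methylases and demethylases are the enzymes that add methyl groups to lysines of histones or remove them. The 36 genes described here were chosen by symbol, as enzymes of these families or as core subunits of their complexes, and all 36 were found among the 55549 rows of the gene tables. Of these, 19 encode methylases, 4 encode subunits and 13 encode demethylases. By the residue they are best known for, 14 act on lysine 4 of histone H3 (H3K4), 11 on H3K9, 5 on H3K27, 5 on H3K36 and 1 on H3K79. None of the 36 acts mainly on H4K20, for which enzymes outside the 36 were examined.

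Libraries came from mouse embryos at the early 2-cell stage, 3 of control embryos and 3 of embryos exposed to 40 uM ethylparaben (EtP), a paraben preservative. Exposure began 4 h after fertilization, and most exposed embryos are said to have stopped developing at that stage. The strain, the medium of the controls, how many embryos made up a library and the hour of collection are not given, nor do the labels say whether replicates are separate cultures. The p-values therefore measure how far these libraries scatter, possibly for technical reasons, and an effect of exposure cannot be told apart from a difference in embryo age.

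Methylation of H3K4 and H3K36 is found at active genes, on promoters and along transcribed bodies, while methylation of H3K9 and H3K27 marks silent chromatin. The mouse egg stores RNA for many of these enzymes, and the embryo rebuilds the pattern of marks on the parental genomes in the first cell cycles, as egg RNA is degraded and embryonic transcription begins. A transcript level in an early embryo reflects both what remains of the stored RNA and what was newly made, and RNA levels do not measure the marks themselves.

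Library totals were 11173295 to 14737152 estimated counts, and correlations of log2(CPM + 1) were 0.940 to 0.988 within groups and 0.905 to 0.936 between them. At least 1 count was found for 25861 to 26004 genes in control libraries and for 19244 to 19613 in EtP libraries. Summed levels of 6 genes of the 2-cell programme, such as Zfp352 and Zscan4d, were 245 to 300 CPM in control and 9.72 to 11.2 CPM in EtP (6 of 6 lower), where CPM is counts scaled for library size with TMM factors. Summed levels of 8 egg and early embryo genes, such as Padi6 and Gdf9, were 3717 to 6455 CPM in control and 12397 to 13953 CPM in EtP (6 of 8 higher). The 10 markers of cumulus cells, which surround the egg, summed to 17.6 to 40.0 CPM and to 17.4 to 19.5 CPM, with Amh and Ptx3 at 0 in every library and 2 of 4 tested lower, Fshr and Tnfaip6. The 6 markers of sperm summed to 5.84 to 12.9 CPM and to 2.90 to 3.43 CPM, with Tnp1 at 0 and Prm2, the 1 tested, lower. Among all tested genes 12.5% were higher and 18.1% lower. Zscan4f, Zfp352, Usp17lc, Tdpoz4, Fshr and Tnfaip6 passed the filter on low counts through their control libraries only. A difference was thus built into their being tested. The summed levels of the egg, 2-cell and sperm lists did not overlap between the groups, and the part of all these lists in the results below was not tested. In such bulk samples, fewer cells and less RNA per cell cannot be told apart.

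Of the 36 members, 34 passed the filter on low counts and were tested, and Kmt2a and Ehmt2 did not pass. In EtP embryos 6 members were higher, namely Ezh2, Kdm5a, Setdb1, Setd2, Ehmt1 and Ash2l, and 3 were lower, namely Kdm4c, Kdm5b and Setd1b (edgeR's quasi-likelihood F test, adjusted p below 0.05 by Benjamini-Hochberg over all tested genes). The 9 called members are 26.5% of those tested, and across all 14373 tested genes 30.6% were called. The 6 higher members are 17.6%, beside 12.5% of all tested genes, and the 3 lower members are 8.82%, beside 18.1%. Members were called about as often as other genes. The log2 fold change of EtP over control was positive for 24 members and negative for 10, with a median of 0.23, and the median of all tested genes was -0.19; these signs depend on the scaling. Among the 31 members with a mean of at least 5 CPM the median was 0.32, and among all 8556 genes at that level it was 0.05. CPM values of the groups did not overlap for 12 of the 34 tested members (35.3%), against 46.8% of all tested genes.

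**Figure D1:**
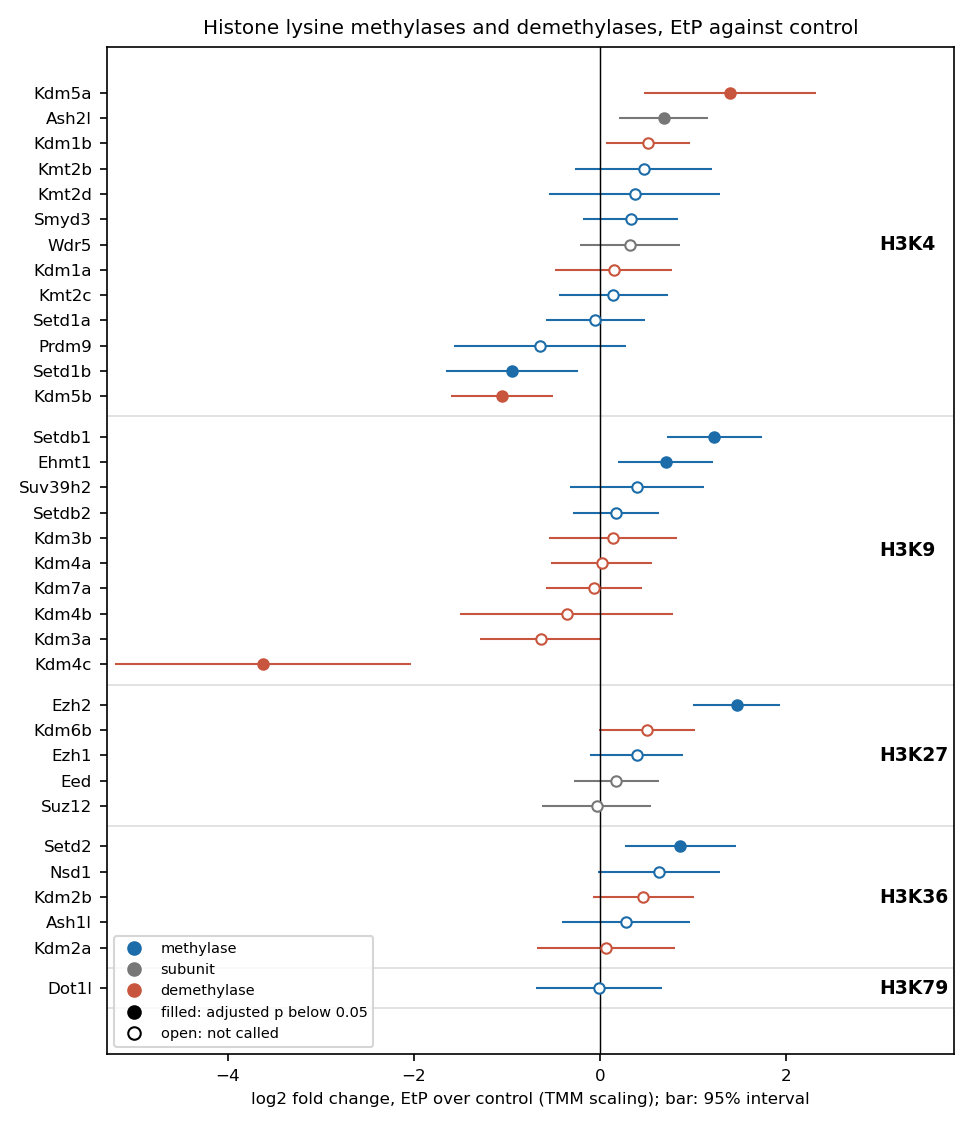
Log2 fold change of EtP over control for the 34 tested members (x axis, TMM scaling) by target residue, with bars for 95% intervals from 3 libraries per group. Filled points are the 9 called members, of which Ezh2, Kdm5a, Setdb1, Setd2, Ehmt1 and Ash2l lie above 0 and Kdm4c, Kdm5b and Setd1b below it; colours mark methylases, subunits and demethylases.

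All of these directions are relative to TMM scaling, and the EtP libraries, in which fewer genes were detected, got smaller factors. The TMM factor was between 1.20 and 1.39 for control libraries and between 0.738 and 0.833 for EtP libraries. The median of all tested genes moved to -0.92 when only library size was used, and then only Ezh2 of the members was higher while 10 were lower, namely Setd1a, Setd1b, Prdm9, Kdm5b, Kdm3a, Kdm4a, Kdm4c, Kdm7a, Eed and Suz12. On log2(TPM + 1) values, where TPM is the deposited level scaled for length and depth and the median of all genes was -0.60, Ezh2 and Setdb1 were higher and Setd1b, Prdm9, Kdm1b, Kdm5b, Kdm3a, Kdm4c and Eed were lower (limma-trend). The members' own median was -0.51 with library size alone, with 4 of the 34 positive, and -0.30 on TPM, with 7 positive, so that the signs of 20 and 17 members turned. The share of all calls that were decreases was 59.1% with TMM, 93.3% with library size and 89.9% on TPM. Ezh2 was above and Kdm5b below control past the threshold with TMM, with library size alone and on TPM. Setd1b and Kdm4c were also below control in each of these fits, Kdm4c having passed the filter through its control libraries only. Prdm9, with 25, 26 and 15 counts in control and 8, 6 and 12 in EtP, also passed through its control libraries. A difference was thus built into the testing of Prdm9, which was called with library size alone and on TPM. Among the called members the signs of Ash2l and Ehmt1 turned with library size alone (log2 fold changes of -0.06 and -0.04) and that of Ash2l also on TPM (-0.02).

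**Figure D2:**
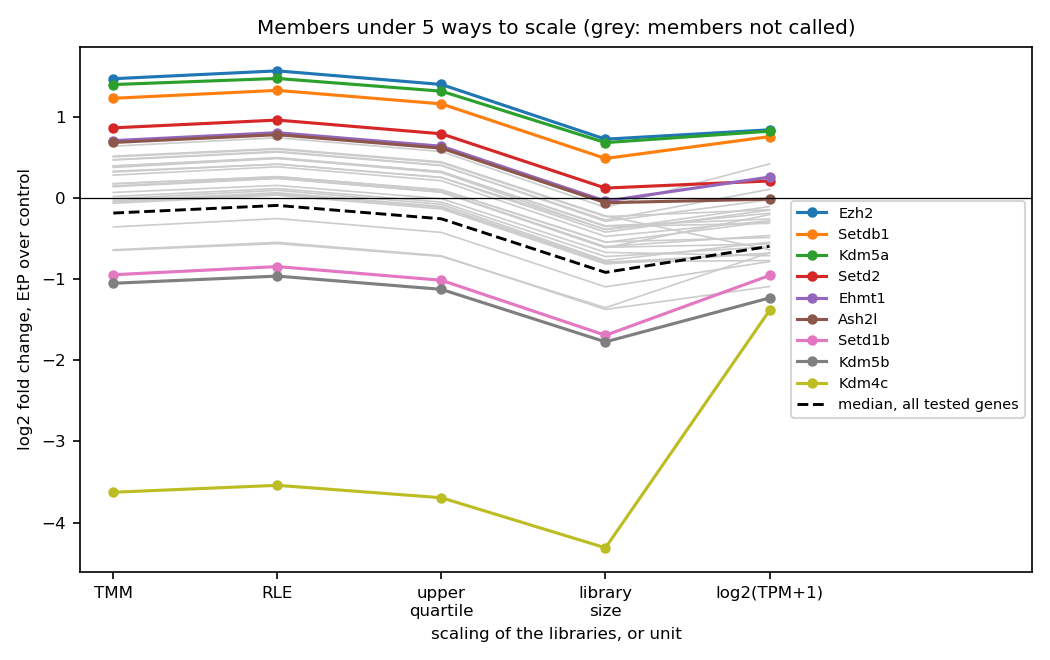
Log2 fold change of EtP over control for each tested member (y axis) with TMM, RLE, upper-quartile and library-size scaling and on log2(TPM + 1) values (x axis). Coloured lines are the 9 called members, grey lines the 25 others, and the dashed line is the median of all tested genes, at -0.19 with TMM and -0.92 with library size alone.

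Per transcript length, the RNA for these enzymes was dominated by a few genes. In control embryos 8 members had a mean of at least 100 TPM, and in EtP embryos 7 did, while 26 of 36 reached 5 TPM in each group. Ezh2 was the highest member in both groups, at 591 ± 181 TPM in control and 1025 ± 81.4 TPM in EtP (SD, n = 3 each). Kdm5a came second, but its value is uncertain for reasons given with its sequence. After these followed Eed (354 ± 16.1 TPM in control), Kdm2b (259 ± 83.4), Wdr5 (254 ± 60.5), Nsd1 (188 ± 71.6) and Setdb1 (140 ± 49.6), and neighbours in this order from Kdm2b down differed by less than the larger of their SDs. Setdb1 remained seventh in EtP, at 227 ± 31.4 TPM, within 1 SD of Wdr5 and Nsd1. At the lower end Kmt2a, Ehmt2, Prdm9 and Kdm4c had 0.243, 1.58, 1.82 and 2.52 TPM in control and 0.00667, 0.693, 0.767 and 0.203 TPM in EtP.

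The H3K27 group was led by Ezh2, the main catalytic subunit of Polycomb repressive complex 2 (PRC2). Ezh2 had 427, 488 and 596 CPM in the control libraries and 1313, 1538 and 1322 CPM in the EtP libraries. All EtP libraries lay above all controls, by a margin wider than the range of either group. The mean rose from 504 ± 85.4 to 1391 ± 127 CPM (SD, n = 3), and its log2 fold change was 1.47 ± 0.21 (SE; adjusted p = 0.000666, edgeR). Ezh2 lies on chromosome 6 from 47530139 to 47595341 of mm10, on the minus strand, and was called under all 15 alternative settings, with an adjusted p of at most 0.0167 by the tools used.

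The other members of the H3K27 group did not pass the test. Ezh1, the second catalytic subunit, had a log2 fold change of 0.39 ± 0.23 (edgeR adjusted p = 0.215). The ratio of Ezh2 to Ezh1 within a library needs no scaling between libraries. It was 24.6, 22.8 and 22.3 on TPM in control and 50.7, 60.5 and 40.9 in EtP, so the groups were apart. Ezh2 made up 95.9% ± 0.208 of the TPM of these 2 methylases in control and 98.0% ± 0.382 in EtP. Eed and Suz12, which PRC2 needs for activity, had log2 fold changes of 0.17 ± 0.21 and -0.04 ± 0.26. Eed alone had 368, 336 and 357 TPM in control and 240, 223 and 297 TPM in EtP, with the groups apart, while its CPM values overlapped. The summed TPM of Eed and Suz12 was 409 ± 20.9 in control and 285 ± 33.1 in EtP, whereas that of Ezh1 and Ezh2 was 616 ± 190 and 1046 ± 83.7 (SD, n = 3), and neither pair of groups overlapped. These 2 sums thus differed in direction on the TPM scale and were not tested. The rise of the first was that of Ezh2, since Ezh1 had 25.7 ± 9.04 and 20.8 ± 4.78 TPM, with overlap. On log2(TPM + 1) Eed changed by -0.49 and Suz12 by -0.77, beside a median of -0.60 over all tested genes. Kdm6b, an H3K27 demethylase, had 66.5 ± 12.1 and 94.4 ± 17.9 CPM and was not called (edgeR adjusted p = 0.127).

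Of 7 tested subunits of PRC2 that are no members, 2 were higher and none lower (28.6% called, against 30.6% of all tested genes), and 3 of the other 5, Rbbp4, Aebp2 and Phf1, had negative log2 fold changes. The genes that rose were Mtf2 and Rbbp7. Mtf2, which helps PRC2 bind CpG-rich DNA, went from 40.6 ± 3.34 to 114 ± 17.8 CPM (log2 fold change 1.50 ± 0.22, edgeR adjusted p = 0.000649). Rbbp7, a histone chaperone, went from 1725 ± 364 to 4397 ± 443 CPM (1.35 ± 0.22, edgeR adjusted p = 0.00148). Their groups did not overlap on CPM or on TPM.

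The H3K9 group held 5 methylases, of which 4 were tested and 2 were higher, and 6 demethylases, all tested, of which 1 was lower. Calls were 30.0% of the 10 tested, against 30.6% of all tested genes. With TMM the methylases had a median log2 fold change of 0.55 and the demethylases one of -0.21, and no test of that difference was made. Setdb1, a methylase recruited by zinc-finger proteins through Trim28 to silence retrotransposons, had 168, 277 and 249 CPM in control and 536, 515 and 570 CPM in EtP. Every EtP library was well above the highest control. Its mean rose from 231 ± 56.9 to 540 ± 27.3 CPM, a log2 fold change of 1.22 ± 0.23 (SE; adjusted p = 0.00301, edgeR). With library size alone it was not called, at 0.48 (edgeR adjusted p = 0.111). Setdb1 shares sequence with Gm4349, with up to 504 stretches of 31 bases in common with its transcripts, and Gm4349 moved the other way, from 14.5 ± 3.26 to 4.79 ± 1.34 CPM. Setdb1 made up 55.1% ± 3.27 of the TPM of the 5 H3K9 methylases in control and 69.6% ± 2.69 in EtP.

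Ehmt1, which with Ehmt2 forms the main enzyme for mono- and dimethylation of H3K9, had 18.5, 23.9 and 28.5 CPM in control and 39.3, 37.5 and 38.6 CPM in EtP. The EtP libraries lay close together and above all controls. It had a log2 fold change of 0.70 ± 0.23 (SE; adjusted p = 0.0402, edgeR). That call was lost without control replicate 2 (edgeR adjusted p = 0.0803) and without EtP replicate 1, 2 or 3 (0.116, 0.0851 and 0.0923). Counting other scalings and filters as well, it was kept under 6 of the 15 alternative settings. Ehmt2 itself was near the limit of detection and untested, with 31 counts over the control libraries and 13 over the EtP libraries, 1.47-fold lower at scaled library sizes with a 95% exact binomial interval from 0.749 to 3.07. Intervals of this kind cover counting error only. Suv39h2 and Setdb2, the remaining methylases, had 93.1 ± 36.4 and 122 ± 35.4 CPM, and 26.6 ± 2.45 and 30.0 ± 1.73 CPM, and were not called (edgeR adjusted p = 0.39 and 0.568).

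Among the H3K9 demethylases Kdm4c was lower in EtP. It had 1.26, 2.91 and 0.779 CPM in control and 0.0965, 0.110 and 0.166 CPM in EtP, from 88 counts in control and 4 in EtP. It was thus a rare transcript in each library and nearly undetected in EtP. The ratio at scaled library sizes was 13.6-fold lower with a 95% exact binomial interval from 5.12 to 51.0, and the fitted log2 fold change was -3.63 ± 0.72 (SE; adjusted p = 0.0039, edgeR). Kdm4c passed the filter through its control libraries only, so a difference was built into its being tested. Without control replicate 2 its log2 fold change was -2.86 (edgeR adjusted p = 0.0163). It was named after its values were seen. Kdm7a (183 ± 40.9 and 174 ± 25.8 CPM) and Kdm4a (42.0 ± 10.3 and 42.5 ± 5.83 CPM), the demethylases of the group with the highest TPM, were not called (edgeR adjusted p = 0.851 and 0.97). Kdm3a was at 6.48 ± 1.27 and 4.16 ± 0.728 CPM without a call (edgeR adjusted p = 0.125), although its groups did not overlap on CPM or TPM. The TPM ratio of Kdm4a to Setdb1 was 0.148, 0.114 and 0.164 in control libraries and 0.0514, 0.0461 and 0.0634 in EtP libraries, with no overlap.

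Genes that work with the H3K9 enzymes but are no members included some with larger changes. Mphosph8, a subunit of the HUSH complex that brings Setdb1 to chromatin, rose from 93.7 ± 21.5 to 514 ± 89.3 CPM (log2 fold change 2.46 ± 0.25, edgeR adjusted p = 6.59e-05). Cbx1, an HP1 protein that binds methylated H3K9, rose from 65.8 ± 12 to 209 ± 35.8 CPM (1.67 ± 0.23, edgeR adjusted p = 0.000542). Trim28 was not called (0.24, edgeR adjusted p = 0.621). Of 12 tested genes on this list 3 were higher, with Atf7ip (0.94, edgeR adjusted p = 0.00818) as the third, and 1 was lower, Cbx3, an HP1 protein. Calls were 33.3% of these 12, against 30.6% of all tested genes. Cbx3 had 75, 64 and 49 counts in control and 1, 4 and 4 in EtP (-3.64, edgeR adjusted p = 0.000475), and like Kdm4c it passed the filter through its control libraries only, so a difference was built into its being tested. Atf7ip and Cbx3 were named after their values were seen.

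Of the 14 H3K4 members 13 were tested, and 2 were higher and 2 were lower (30.8% called, against 30.6% of all tested genes). Among the methylases the only call was Setd1b, the catalytic subunit of a COMPASS complex. It had 5.76, 10.3 and 11.9 CPM in control and 4.54, 4.53 and 5.38 CPM in EtP. The groups did not overlap, but the lowest control lay close to the highest EtP library. The difference on the log2 scale was -0.95 ± 0.32 (SE; adjusted p = 0.0456, edgeR). This call was lost on removal of control replicate 2 or 3 (adjusted p = 0.162 and 0.132, edgeR) and without EtP replicate 1, 2 or 3 (0.162, 0.153 and 0.101). It was also lost with RLE scaling (0.0612), no filter (0.054), DESeq2 (0.0884) and limma-voom (0.0763). Its close relative Setd1a was at 34.8 ± 8.57 and 33.6 ± 0.771 CPM (edgeR adjusted p = 0.894). The TPM ratio of Setd1b to Setd1a was 0.0577, 0.0670 and 0.0916 in control and 0.0330, 0.0470 and 0.0385 in EtP. The ratio was lower in each EtP library than in any control, and part of Setd1a cannot be told from an overlapping gene model, Gm49388, which was at 0 in every library.

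The large methylases Kmt2c and Kmt2d, which act at enhancers, were not called, and their control libraries varied widely. Kmt2d had 86.9, 209 and 374 CPM in control and 282, 236 and 348 CPM in EtP, and it was called only without control replicate 3 (log2 fold change 1.02, edgeR adjusted p = 0.0344). Kmt2c had 196 ± 62.2 and 216 ± 38.5 CPM and Kmt2b, a methylase needed in the mouse egg, had 18.1 ± 5.38 and 25.2 ± 10.6 CPM, without a call (edgeR adjusted p = 0.719 and 0.312). Smyd3 and Prdm9, the latter known for marking recombination sites in germ cells, were not called either. Kmt2a was under the filter with 53 counts over the control libraries and 2 over the EtP libraries, 16.4-fold lower with a 95% exact binomial interval from 4.31 to 139. With no filter it was called (log2 fold change -3.83 ± 0.94, edgeR adjusted p = 0.000675), and in the other settings that tested it adjusted p-values of edgeR and DESeq2 ran from 0.00359 to 0.0615. In the fits that left out a library Kmt2a passed the filter through its control libraries only, so a difference was built into its being tested there. Kmt2a was named after its values were seen.

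Ash2l, a subunit shared by the COMPASS complexes, had 22.1, 28.8 and 27.7 CPM in control and 42.8, 44.8 and 38.5 CPM in EtP. Each EtP library was above each control. The fitted log2 fold change was 0.68 ± 0.22 (SE; adjusted p = 0.0359, edgeR), and the call was lost without control replicate 2 (edgeR adjusted p = 0.059) and without EtP replicate 1, 2 or 3 (0.111, 0.101 and 0.0633). Counting other scalings and filters as well, the call was kept under 6 of the 15 alternative settings. TPM values of Ash2l differed by less than 1 SD, at 14.4 ± 4.24 and 13.8 ± 0.503. Its deposited transcript length was near that of Ash2l-201, its longest coding transcript. In Ash2l-201 7.78% of stretches of 31 bases occur in other genes, and 1 stretch was found in 717. Reads of these stretches cannot be placed with certainty. Wdr5, a second shared subunit, was at 236 ± 53.9 and 294 ± 55.3 CPM (edgeR adjusted p = 0.35). Of 11 tested subunits of H3K4 methylase or demethylase complexes that are no members, among them Rcor1 of the Kdm1a complex, only Wdr82, which serves the Setd1a and Setd1b complexes, was called. It went down from 115 ± 27.5 to 68.2 ± 4.06 CPM (log2 fold change -0.75 ± 0.23, edgeR adjusted p = 0.033). The 1 call among these 11 is 9.09%, against 30.6% of all tested genes.

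The H3K4 demethylases Kdm5a and Kdm5b were called in opposite directions. Kdm5b had 13.5, 12.5 and 12.3 CPM in control and 5.12, 6.63 and 6.71 CPM in EtP. The replicates were tight and the groups far apart. Its log2 fold change was -1.05 ± 0.25 (SE; adjusted p = 0.00966, edgeR), and of the 15 alternatives only leaving out EtP replicate 1 lost the call (-0.89, edgeR adjusted p = 0.0739). Kdm5a had 261, 120 and 89.3 CPM in control and 454, 553 and 229 CPM in EtP. The highest control lay above the lowest EtP library. The log2 fold change was 1.39 ± 0.42 (SE; adjusted p = 0.028, edgeR), and the call was lost without control replicate 2 (edgeR adjusted p = 0.0976) and without EtP replicate 1 or 2 (0.0771 and 0.109). Without control replicate 1 it was 2.07 (edgeR adjusted p = 0.00732), and the call was also lost with a filter of 5 CPM in 3 libraries (0.0603), with library size alone (0.13) and on TPM (0.0562, limma). Kdm1b, which demethylates H3K4 in the growing mouse egg, had 92.8, 116 and 120 CPM in control and 149, 146 and 173 CPM in EtP without a call (log2 fold change 0.51 ± 0.21, edgeR adjusted p = 0.0827). On TPM Kdm1b went the other way, with 60.3, 83.0 and 81.3 in control and 50.6, 37.9 and 54.6 in EtP. Its groups were apart on each scale, in opposite order. Kdm1a was at 13.6 ± 2.54 and 15 ± 4.84 CPM (edgeR adjusted p = 0.733). The Y-linked Kdm5d, no member, was called higher with overlapping groups (log2 fold change 1.21 ± 0.34, edgeR adjusted p = 0.0208).

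**Figure D3:**
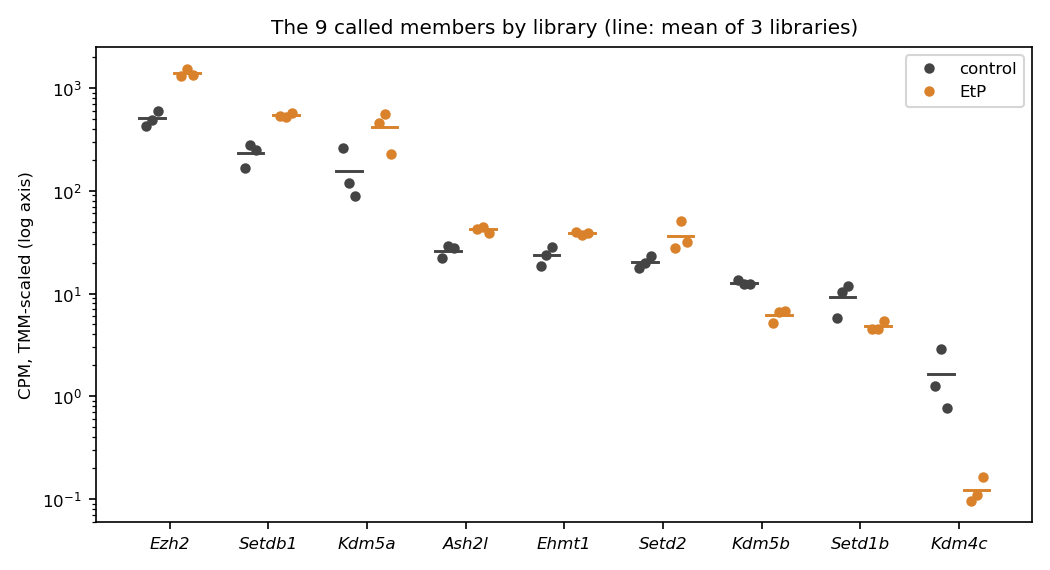
CPM scaled by TMM (y axis, log scale) of the 9 called members in each of the 3 control and 3 EtP libraries, with a line at the mean of each group. Groups are apart for 8 of the 9 genes and overlap for Kdm5a, and Kdm4c lies between 0.0965 and 2.91 CPM.

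The deposited tables give a transcript length per gene that differs between libraries and lies within the annotated lengths of the members, and for Kdm5a this length bears on what was counted. It was 693 to 707 bases in control and 690 to 692 bases in EtP, 6.39% and 6.31% of the longest coding transcript, which has 10944 bases. If it is a mean over transcripts weighted by their estimated shares, at most 2.36% of the Kdm5a molecules in any library were assigned to that transcript. The value lies next to the 689 bases of Kdm5a-205, a transcript with a retained intron on chromosome 6 from 120429823 to 120432043 (mm10, plus strand). This transcript shares runs of 31 bases with 1122 other genes, and 234 of its bases are not in Kdm5a-201, the longest coding transcript. Its first 180 bases, from the plus strand at chr6:120429823-120430002, are shown because they hold the shared sequence, with capitals for bases in runs of 31 found in at least 20 other genes:
Kdm5a-205: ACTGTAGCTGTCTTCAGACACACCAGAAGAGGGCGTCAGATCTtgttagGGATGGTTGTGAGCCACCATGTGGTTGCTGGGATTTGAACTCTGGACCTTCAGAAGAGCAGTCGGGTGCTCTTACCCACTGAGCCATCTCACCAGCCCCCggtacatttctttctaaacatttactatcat
Of the 180 bases 143 are capitals, and 1 run was found in 718 other genes. These bases read as the reverse complement of B2, a short repeat scattered over the mouse genome. Reads of such a sequence cannot be placed at 1 locus with certainty, and neither the level of Kdm5a nor its change can be assigned to the coding transcript. Without Kdm5a, the H3K4 demethylases summed to 86.6 ± 15.4 TPM in control and 54.2 ± 7.47 TPM in EtP, with EtP lower, and to 136 ± 16.2 and 177 ± 14.0 CPM, with EtP higher.

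Deposited lengths separated the groups for 8 of the 34 tested members, 3 longer and 5 shorter in EtP, against 21.3% of 10708 tested coding genes with several transcripts (1184 longer and 1101 shorter). Kdm1b, Ash2l and Suz12 were longer, and Setdb1, Ehmt1, Kdm2b, Smyd3 and Kdm5a were shorter. Kdm1b had 2213, 2466 and 2968 bases in control and 3011, 3932 and 3782 bases in EtP. This is the gene that was above control on CPM and below it on TPM. Kdm1b also overlaps Dek, whose CPM went from 99.5 ± 13.3 to 164 ± 9.76, and reads without strand cannot be split between overlapping genes with certainty. Setdb1 had 2860, 2873 and 2967 bases in control and 2555, 2641 and 2631 bases in EtP. Its longest coding transcript has 4658 bases, so shorter forms took part of the Setdb1 estimate in each library. The mean length of Ehmt1 was 23.2% of its longest coding transcript in control and 20.5% in EtP. For Nsd1 it was 28.6% and 22.2%, so shorter forms took part of these 2 estimates too. The members' median length was 57.3% of the longest coding transcript, against 74.6% over the 10708 genes.

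**Figure D4:**
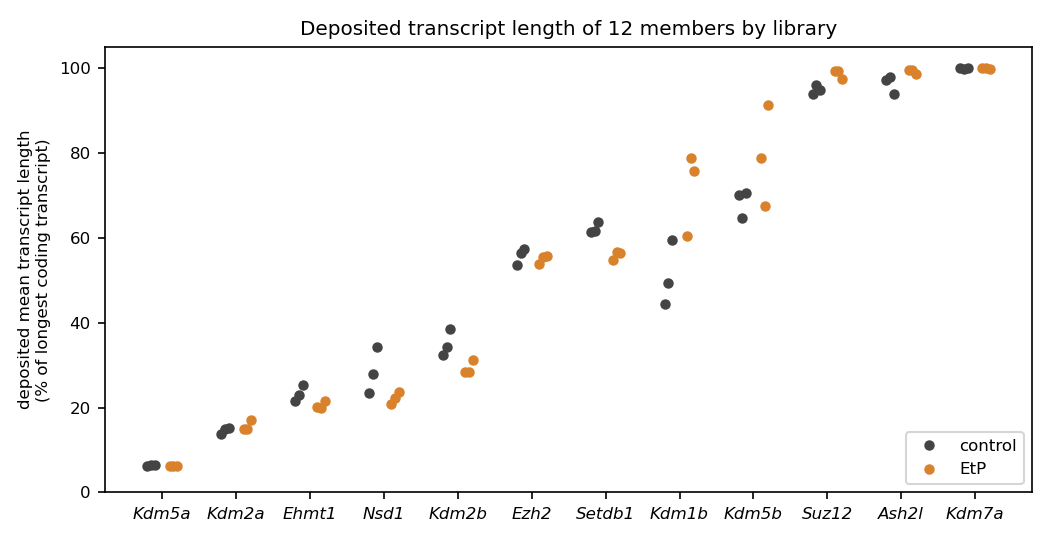
Deposited mean transcript length as a percent of the longest coding transcript (y axis) for 12 members in the 3 control and 3 EtP libraries (points). Kdm5a lies near 6% in every library, and Kdm1b runs from 2213 to 2968 bases in control and from 3011 to 3932 bases in EtP.

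In the H3K36 group 1 of 5 members was called, against 30.6% of all tested genes. All 5 log2 fold changes of the group were positive with TMM, against 1 of 5 with library size alone and 3 of 5 on TPM. Setd2, the enzyme for trimethylation of H3K36 along transcribed genes, had 17.6, 19.9 and 22.9 CPM in control and 27.5, 50.4 and 32.0 CPM in EtP. The groups were apart and EtP replicate 2 was the highest. The log2 fold change was 0.86 ± 0.27 (SE; adjusted p = 0.0341, edgeR), and the call was lost without control replicate 2 (edgeR adjusted p = 0.0783) and without EtP replicate 2 or 3 (0.141 and 0.0544). Counting other scalings and filters as well, the Setd2 call was kept under 9 of the 15 alternative settings. Nsd1, which makes dimethylated H3K36, was the methylase of the group with the highest TPM. It had 229, 434 and 543 CPM in control and 636, 536 and 701 CPM in EtP. Control replicate 3 lay above EtP replicate 2. Nsd1 was not called (log2 fold change 0.63 ± 0.30, edgeR adjusted p = 0.128) but was called without control replicate 3 (0.96, edgeR adjusted p = 0.0224), with a replicate block (0.71, edgeR adjusted p = 0.021) and with DESeq2 (0.76, adjusted p = 0.0487). Nsd1 held 95.5% ± 0.538 of the TPM of the 3 methylases in control and 96.2% ± 1.62 in EtP, the rest being Setd2 and Ash1l. The demethylases Kdm2b and Kdm2a, which bind unmethylated CpG DNA, were at 261 ± 65.5 and 361 ± 62.7 CPM, and at 71.4 ± 23.8 and 74.7 ± 29.1 CPM (edgeR adjusted p = 0.178 and 0.902). Part of Kdm2b overlaps Rnf34, which was at 361 ± 49.1 and 546 ± 87.3 CPM. Deposited lengths of Kdm2a ran from 1179 to 1470 bases, and its longest coding transcript has 8578. Of its 14 transcripts, Kdm2a-208 (1128 bases) holds a run of 31 bases found in 718 other genes. Reads of that run cannot be placed with certainty. Kdm2a-212 (1076 bases) holds no shared run, and the mean lengths do not tell which transcripts were counted.

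Proteins that join Kdm2b in a variant Polycomb complex were examined with this group. Pcgf1 rose from 342 ± 162 to 1536 ± 177 CPM (log2 fold change 2.17 ± 0.32, edgeR adjusted p = 0.000702), and Skp1a from 1125 ± 418 to 2659 ± 436 CPM (1.24 ± 0.28, edgeR adjusted p = 0.00805). Bcor, also of this complex, was lower (-1.07, edgeR adjusted p = 0.0276). Of 12 tested related genes of the H3K36 group, 3 were higher and 1 was lower (33.3% called, against 30.6% of all tested genes). The third higher gene was Supt6 (0.89, edgeR adjusted p = 0.0289). Bcor and Supt6 were named after their values were seen.

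Dot1l, the only known H3K79 methylase of mouse, had 27.5, 50.1 and 64.2 CPM in control and 40.8, 56.7 and 43.1 CPM in EtP. The EtP libraries lay within the range of the controls. The log2 fold change was -0.01 with a 95% interval from -0.69 to 0.66 (edgeR adjusted p = 0.98). Mllt3, which recruits Dot1l to elongating polymerase, rose from 282 ± 32.4 to 462 ± 91.3 CPM (0.71 ± 0.22, edgeR adjusted p = 0.0321), and Mllt10, its partner, was not called (0.45 ± 0.24, edgeR adjusted p = 0.181). For H4K20, Kmt5b, which makes the di- and trimethylated forms, rose from 29.5 ± 8.36 to 77.1 ± 27 CPM (1.38 ± 0.32, edgeR adjusted p = 0.00906). Kmt5a, the monomethylase, had 17.5, 21.6 and 29.0 CPM in control and 13.1, 16.5 and 14.1 CPM in EtP and was not called (-0.64 ± 0.26, edgeR adjusted p = 0.0817).

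Of the 58 related methylases, demethylases and subunits examined beside the members 51 were tested, and 11 were higher and 3 lower (Cbx3, Wdr82 and Bcor). These 27.5% called compare with 26.5% of the members and 30.6% of all tested genes. By role, 9 of 33 tested subunits were higher and 3 lower, 1 of 11 methylases was higher and none lower, and 1 of 7 demethylases was higher and none lower. Among the members themselves 4 of 17 tested methylases were higher and 1 lower, and 1 of 13 demethylases was higher and 2 lower.

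Summed by residue and role on TPM, 2 of 11 sets of members had groups apart, the H3K27 methylases above control and the H3K27 subunits below. On CPM 5 of 11 sets were apart, all with EtP above, namely the H3K4 demethylases, the H3K9 methylases (375 ± 90.0 and 731 ± 48.1 CPM), the H3K27 methylases and the H3K36 methylases and demethylases, while the H3K27 subunits overlapped (335 ± 21.1 and 358 ± 37.9 CPM). Which sets were apart thus depended on the scale. The sum over the 8 H3K4 methylases was 145 ± 57.7 TPM in control and 98.9 ± 21.4 TPM in EtP, and over the 5 H3K9 methylases 254 ± 87.2 and 326 ± 46.5 TPM, each with overlap. The 6 H3K9 demethylases summed to 38.4, 69.0 and 84.8 TPM in control and 31.9, 35.0 and 40.9 TPM in EtP, so that 1 control library lay inside the EtP range. All 36 members together made up 2425, 2862 and 3278 TPM in control and 3311, 3508 and 3495 TPM in EtP. The groups were apart by a small gap, and without Kdm5a they overlapped (2430 ± 591 and 2695 ± 276 TPM). On CPM the groups stayed apart without Kdm5a (3306 ± 743 and 5159 ± 220), and also without Kdm5a and Ezh2 (2802 ± 663 and 3768 ± 218). Without Kdm5a, Ezh2 and Setdb1 the remaining 33 members summed to 1699 ± 370 and 1443 ± 210 TPM, and to 2571 ± 616 and 3228 ± 196 CPM, with overlap on each scale.

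**Figure D5:**
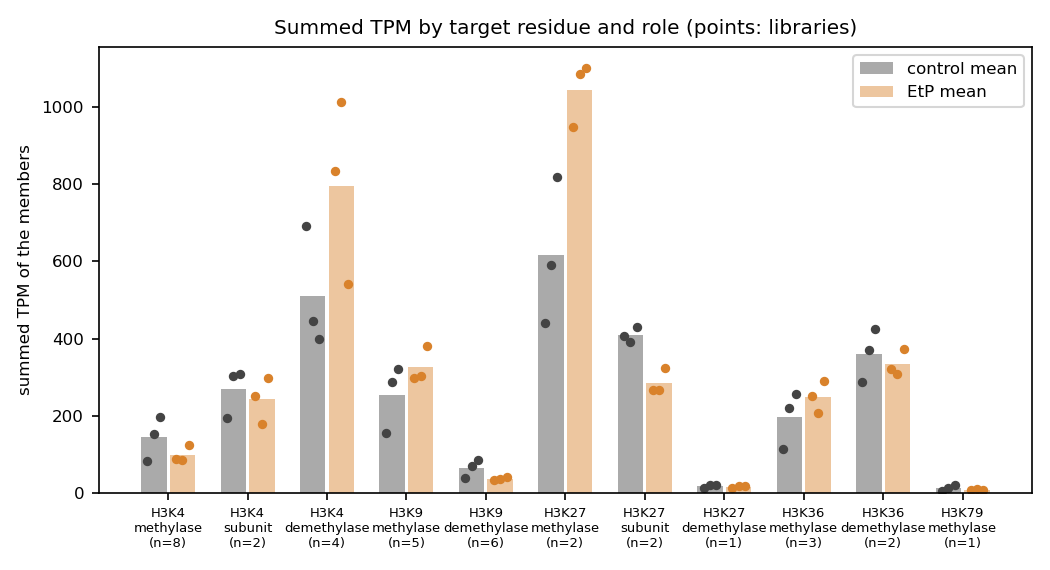
Summed TPM of the members (y axis) by target residue and role, with bars at the mean of 3 libraries and points for single libraries. The H3K27 methylases lie higher in EtP (616 against 1046 TPM) and the H3K27 subunits lower (409 against 285 TPM), and the other 9 sets overlap on this scale.

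Promoters were read from RefSeq (GRCm38.p6) for 25 of the 36 members, which had 33 annotated starts, as the 250 bases before each start. The members' promoters held a median of 23 CpG dinucleotides, against 6 over all 32851 promoters of the same length. The motif GGGCGG, the core of the GC box bound by Sp1, was found on either strand in 63.6% of the members' promoters and in 32.7% of all. TATAAA was found in 0 of 33 and in 12.4% of all, and CCAAT in 30.3% and 33.9%, the motifs being searched on both strands. The promoters of Setdb1 (chr3:95357203-95357452, minus strand), which rose, and of Kdm5b (chr1:134559928-134560177, plus strand), which fell, are shown as a pair called in opposite directions, with GGGCGG or its reverse complement in capitals:
Setdb1: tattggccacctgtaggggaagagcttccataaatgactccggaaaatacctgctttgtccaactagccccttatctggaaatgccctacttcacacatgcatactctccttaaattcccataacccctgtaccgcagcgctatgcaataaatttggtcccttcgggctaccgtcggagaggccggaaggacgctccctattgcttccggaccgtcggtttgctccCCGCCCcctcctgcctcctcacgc
Kdm5b: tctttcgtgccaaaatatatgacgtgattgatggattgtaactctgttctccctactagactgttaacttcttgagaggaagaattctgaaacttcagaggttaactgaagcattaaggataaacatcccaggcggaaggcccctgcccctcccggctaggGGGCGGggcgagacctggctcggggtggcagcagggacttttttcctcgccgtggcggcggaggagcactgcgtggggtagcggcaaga
Each of the pair has 13 CpG dinucleotides and 1 GGGCGG, so neither count told the gene that rose from the gene that fell. The promoter of Ezh2 has 23 CpG and no GGGCGG. A match to a motif describes these letters and not a bound site.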

How the data were processed

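Polyadenylated RNA was amplified by Smart-Seq2 with oligo-dT priming and PCR, without strand or molecular identifiers, per the labels' protocols. The submitters' processing notes name mm10, STAR and cutadapt 1.16, and the counting program is not given in the sources used here. As deposited, estimated counts are the authors' expected counts per gene, of which 10.6% to 16.0% of rows were not whole, and they were rounded. The deposited TPM values, which the authors scaled to length and depth, were used for levels between genes, and the deposited FPKM values were not used.

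Groups (3 libraries each) were compared with edgeR 4.0.16 in R 4.3.3 (filterByExpr, TMM, robust quasi-likelihood fit, adjusted p threshold 0.05), on all genes at once. SE was taken as the size of the log2 fold change over the root of F. Values after ± are SD unless marked, and log2 fold changes carry SE. Alternatives used limma 3.58.1, DESeq2 1.42.0, other scalings and filters, a replicate block and leaving out each library. GENCODE M21 gave positions, transcript lengths and sequences. Figures were drawn with matplotlib 3.10.9.

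The members and lists were chosen with earlier results of these data known. Values per library are given for called members with a mean of at least 5 CPM and for the member with the highest mean CPM at each residue, and for related genes up to 2 per residue with the smallest p; any further gene was named with its values already seen. The edgeR step was tested on simulated data, where 83.2% of 4-fold and 12.9% of 2-fold changes were called. Of the calls there 8.18% were unchanged genes. Only 107 genes were changed 4-fold and 93 were changed 2-fold among 13913, whereas 30.6% of tested genes were called in these libraries. With fewer changed genes the Benjamini-Hochberg cut is stricter, so the simulated shares do not give the rate of missed changes here. Whether a 2-fold change was missed differs between the members that were not called. The confidence interval of Nsd1 in the main fit, from -0.02 to 1.29 on the log2 scale, includes a 2-fold rise. That of Kdm4a, from -0.53 to 0.56, includes no 2-fold change in either direction. Beside the 58 related genes, Ezhip was looked for by symbol and not matched.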

Additional observations from a re-analysis of the deposited data

How the results depend on the processing

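Counts of higher and lower calls moved most with scaling. With library size alone 545 genes were higher and 7617 lower, 1 member higher and 10 lower, and 5 related genes higher and 19 lower. On log2(TPM + 1) these numbers were 698 and 6195, 2 and 7, and 7 and 14. At an adjusted p below 0.01 they were 918 and 1403, 2 and 2, and 8 and 1. A filter of 5 CPM in 3 libraries gave 1192 and 1819, 2 and 3, and 9 and 2. Lower related genes numbered 6 with upper-quartile scaling and 5 with limma-voom. With RLE 7 members were higher and 2 lower, and with DESeq2 8 and 3.

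Leaving out 1 library gave 1096 to 2637 higher and 1659 to 2887 lower genes, 2 to 8 higher and 2 to 4 lower members, and 8 to 14 higher and 1 to 8 lower related genes. Without control replicate 2 or EtP replicate 2, Setdb1 and Ezh2 were the only higher members. The sign of the log2 fold change turned for 20 of 34 members with library size alone and for 17 on TPM. Of the members called in either fit, these were Ash2l (-0.061), Ehmt1 (-0.042), Kdm4a (-0.72) and Eed (-0.54) with library size alone, and Ash2l (-0.017), Kdm1b (-0.64) and Eed (-0.49) on TPM. Of 15 alternatives, Ezh2 was called under 15, Setdb1 and Kdm5b under 14, Kdm5a and Setd2 under 9, and Ash2l, Ehmt1 and Setd1b under 6. Kdm4c was called under the 14 that tested it, which says nothing of stability, since it was tested through its control counts only. The cause of the changes was not tested.

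The labels do not say whether replicate numbers pair the libraries, and the main fit treated them as unpaired. Deviations of same-numbered libraries correlated at 0.18, 0.0052 and 0.36, and those of differently numbered libraries at -0.31 to 0.15. The highest values, 0.36 and 0.18, were thus those of same-numbered libraries. With a replicate block 2295 genes were higher and 3022 lower, 7 members higher and 3 lower, and 14 related genes higher and 5 lower. With 3 libraries a group, rare members such as Kmt2a, Ehmt2 and Kdm4c rest on few counts, and smaller changes can be missed.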
